A study of Zea mays with 10 samples.

Results

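The genes described here encode the machinery that attaches ubiquitin to proteins and degrades them, followed in maize seedlings through nearly 2 days of constant light. They are the probe sets whose Arabidopsis match, in the functional annotation of the study, names ubiquitin, an F-box or the proteasome and names neither a transcription factor nor a ribosomal protein. 29 rows of that annotation, for 28 probe sets of 25 maize genes, met this rule. 25 of the 28 reached a signal of 50 or more on 3 or more arrays, the level from which a probe set was counted as measured, as did 12512 of the 17621 probe sets on the array without controls. The annotation was held only in part, and 19 of the 28 members came from rows that list probe sets by a rhythm call made on the same hybridizations, as did 62.3% of all rows held. Counts of daily rhythms among the members are therefore a description, and nothing is read from them.

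Ubiquitin is a small protein that marks other proteins for a new fate. An E1 enzyme activates it, an E2 conjugating enzyme carries it, and an E3 ligase places it on a chosen target. Many E3 ligases of plants are a single protein with a RING or U-box domain. Others are complexes in which an F-box protein holds the target. Chains of ubiquitin send a target to the 26S proteasome, whose barrel-shaped 20S core cuts proteins and whose regulatory particle receives and unfolds them, while deubiquitinating enzymes take ubiquitin off again. In Arabidopsis, F-box proteins of the circadian system set the lifetime of clock proteins.

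All plants were seedlings of the inbred line B73, given cycles of 12 h light and 12 h dark for 7 days and then kept in constant light. Leaf and shoot tissue was harvested at 4 h intervals, with hours counted from the transfer (ZT, zeitgeber time). Each array, an Affymetrix Maize Genome Array, held RNA of 3 pooled replicates of 5 seedlings. 10 arrays were used, which cover ZT0 to ZT8 and then ZT20 to ZT44. ZT12 and ZT16 were not analysed here. There was 1 array per time point, so errors and p-values describe how far the arrays fell from a fitted curve, with no spread between replicates. Because whole aerial tissue was sampled, less RNA per cell and fewer cells of a type cannot be told apart.

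The arrays were alike in their median signals, which were 188 to 214 before normalisation. After normalisation the leaf markers were bright on every array: the C4 enzyme PEPC had signals of 9350 to 10931, and the Rubisco small subunit had 9974 to 12169. As deposited, these bright signals differed more between arrays. PEPC was at 12399 at ZT0 and 7846 at ZT28, and the Rubisco small subunit at 13998 at ZT0 and 8400 at ZT28. The clock gene GI1A was at 66.0 at ZT0, its lowest array, and at 2696 at ZT8, its highest. Ratios of 3′ to 5′ signal over the control transcripts, which depend on RNA integrity and labelling, averaged 3.40 at ZT36, the highest array, and 2.24 at ZT28, the lowest. All signals given below are quantile-normalised intensities, and the level of one probe set cannot be set against that of another.

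The ratio of the highest to the lowest of the 10 signals had a median of 1.41 over the 25 measured members and 1.49 over all probe sets measured. It reached 2 or more in 2 of 25 members, against 16.6% of all probe sets. Those members were an F-box gene, GRMZM2G130348, at 2.59 and a match of the RING E3 ligase BIG BROTHER, GRMZM2G071602, at 2.61. The smallest ratio, 1.13, belonged to 1 probe set of a ubiquitin family gene, GRMZM2G049839, while another probe set of that gene had 1.74.

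**Figure D1:**
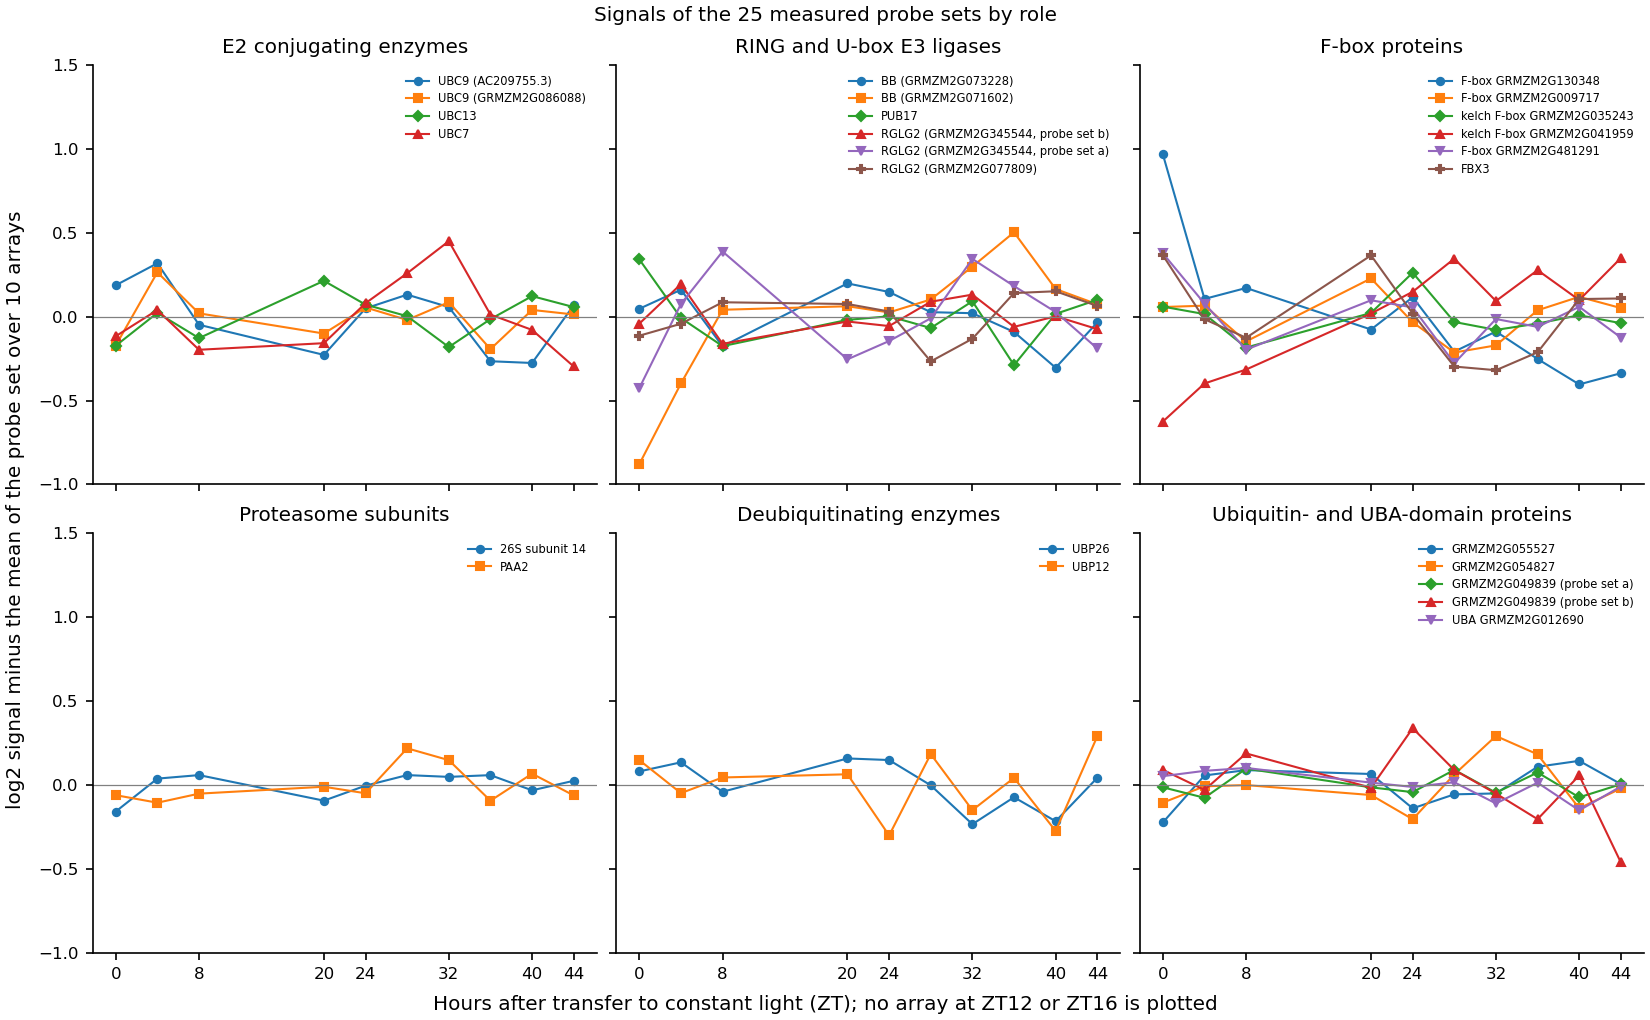
Signals of the 25 measured probe sets, as log2 signal minus the probe set's own mean over the 10 arrays (vertical axis), against hours after transfer to constant light (horizontal axis), in 1 panel per role. The widest excursions lie at ZT0, for the F-box gene GRMZM2G130348 (611 at ZT0) and the BIG BROTHER match GRMZM2G071602 (377 at ZT0), while the proteasome panel stays close to 0.

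Among the E2 conjugating enzymes, 2 maize genes match Arabidopsis UBC9, a member of a large group of E2 enzymes that work with many E3 ligases. The gene AC209755.3, whose protein is 96% identical to UBC9 over 143 aligned residues, had signals of 6774 at ZT0, 7419 at ZT4, 5753 at ZT8, 5079.6 at ZT20, 6156 at ZT24, 6516 at ZT28, 6189.7 at ZT32, 4948 at ZT36, 4912 at ZT40 and 6236 at ZT44. After normalisation it was highest at ZT4 on the first day and at ZT28 on the second. Its lowest arrays were ZT20, ZT36 and ZT40, but ZT44, also in the subjective night, lay above ZT24 and ZT32. As deposited, the highest array of the second day was ZT24, at 6654 against 5722.5 at ZT28. ZT44, at 5419 as deposited, lay below both ZT24 and ZT32 (6362). The fitted peak-to-trough difference was 0.55 in log2 (SE 0.13), with a peak at 2.8 h (SE 0.6). The second gene, GRMZM2G086088, is 95% identical to UBC9 over 147 residues. Its signals were 1603 at ZT0, 2169.5 at ZT4, 1831 at ZT8, 1684 at ZT20, 1876 at ZT24, 1782 at ZT28, 1917 at ZT32, 1579 at ZT36, 1857 at ZT40 and 1822 at ZT44. Apart from a single high array at ZT4 these values lay close together, and the fitted difference was 0.21 (SE 0.16). Neither UBC9 match passed the threshold of the 24-h curve (limma adjusted p = 0.328 for AC209755.3 and 0.788 for GRMZM2G086088). The log2 profiles of the UBC9 matches correlated at r = 0.50 over the 10 arrays, which describes 1 course of arrays that both share, and the difference between their fitted curves was not tested.

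UBC13 and UBC7 are the other E2 enzymes. UBC13 (GRMZM2G085600) ranged between 585 at ZT32 and 769 at ZT20, with a median of 669, and its fitted difference was 0.20 (SE 0.11) with a peak at 19.4 h. UBC7 was the dimmest member measured. Its signals were 76.5 at ZT0, 85.3 at ZT4, 72.4 at ZT8, 74.4 at ZT20, 87.7 at ZT24, 99.3 at ZT28, 113 at ZT32, 83.7 at ZT36, 78.6 at ZT40 and 67.5 at ZT44, so that a single broad maximum appeared on the second day with no counterpart on the first. Its fitted difference was 0.56 (SE 0.22), and 0.43 without ZT32. The functional annotation assigns this probe set to GRMZM2G130169 and the platform annotation to another gene, also called ubc7, so its gene is uncertain.

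The RING E3 ligases included the 2 matches of BIG BROTHER, which limits organ growth in Arabidopsis. Both match over a short stretch, at 52% identity for GRMZM2G073228 and 51% for GRMZM2G071602. GRMZM2G071602 had signals of 377 at ZT0, 527 at ZT4, 714 at ZT8, 725 at ZT20, 706 at ZT24, 745 at ZT28, 854 at ZT32, 984 at ZT36, 778 at ZT40 and 731 at ZT44. It was lowest at the transfer and next lowest at ZT4, and every later array lay above both. Its highest array, ZT36, is the one with the highest 3′ to 5′ ratio, and the part of RNA quality in that maximum was not tested. GRMZM2G073228 had 1025 at ZT0, 1109 at ZT4, 878 at ZT8, 1139 at ZT20, 1099 at ZT24, 1011 at ZT28, 1007 at ZT32, 932 at ZT36, 804 at ZT40 and 969 at ZT44, with no low array at ZT0. The fitted peaks of these genes lay 9.2 h apart, at 10.3 h (SE 1.8) for GRMZM2G071602 and 1.1 h (SE 1.4) for GRMZM2G073228, and their log2 profiles correlated at r = -0.34.

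Arabidopsis RGLG2, a RING ligase that helps build ubiquitin chains of a kind not mainly used for degradation, has 3 probe sets here. GRMZM2G345544 carries a pair of them. The first, called a here, had signals of 246 at ZT0, 348 at ZT4, 433 at ZT8, 277 at ZT20, 299 at ZT24, 328 at ZT28, 419.7 at ZT32, 375 at ZT36, 337 at ZT40 and 289.8 at ZT44. The days ran alike, with the highest arrays at ZT8 and ZT32 and low values around ZT0, ZT20, ZT24 and ZT44. The fitted difference was 0.63 (SE 0.10) and the peak fell at 9.4 h (SE 0.9), with peaks of 8.2 to 10.5 h over the alternative fits. The second, called b, gave 253 at ZT0, 298 at ZT4, 233 at ZT8, 255 at ZT20, 251 at ZT24, 277 at ZT28, 285 at ZT32, 249.7 at ZT36, 261 at ZT40 and 247 at ZT44. It did not show the maximum at ZT8, where it was at its lowest, and the profiles of these probe sets of 1 gene correlated at only r = 0.13, so the daily course of GRMZM2G345544 depends on which probe set is read.

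The other RGLG2 match, GRMZM2G077809, ran differently again. Its signals were 188 at ZT0, 197 at ZT4, 215 at ZT8, 214 at ZT20, 207 at ZT24, 169 at ZT28, 185 at ZT32, 224 at ZT36, 225 at ZT40 and 212 at ZT44, with the lowest array in the second subjective morning and a fitted peak at 15.3 h (SE 1.0). PUB17, a U-box ligase with a role in defence in Arabidopsis, ranged between 272 at ZT36 and 421 at ZT0, with a median of 332. DRIP2, a RING ligase that targets the stress regulator DREB2A in Arabidopsis, did not pass the signal rule, with signals of 26.4 to 45.97.

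**Figure D2:**
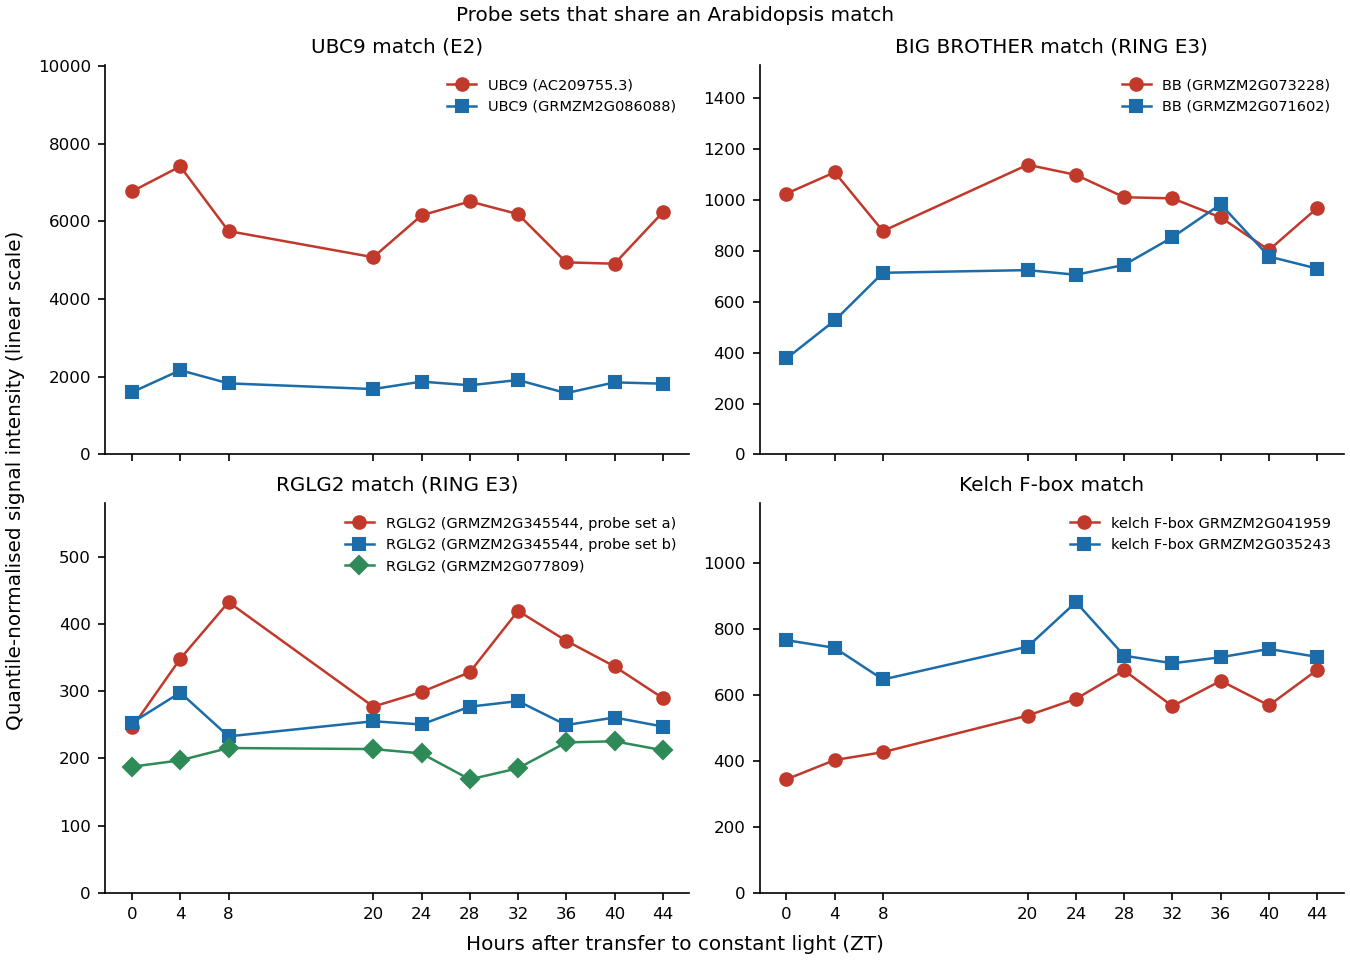
Quantile-normalised signal intensity on a linear scale (vertical axis) against hours after transfer to constant light (horizontal axis) for probe sets that share an Arabidopsis match, 1 point per array. The RGLG2 probe set a is high at ZT8 and ZT32 (433 and 419.7), a course that the second probe set of the same gene lacks. The kelch F-box gene GRMZM2G041959 climbs up to ZT28 (674) and then lies between 566 and 676, while GRMZM2G035243 stays level apart from ZT24.

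Among the F-box proteins, GRMZM2G041959 encodes an F-box protein with kelch repeats, a domain used to hold targets. Its signals were 344 at ZT0, 402 at ZT4, 426 at ZT8, 538 at ZT20, 588 at ZT24, 674 at ZT28, 566 at ZT32, 643 at ZT36, 568 at ZT40 and 676 at ZT44. Each array of the second day lay above every array of the first. GRMZM2G035243 matches the same Arabidopsis protein, and it had 766 at ZT0, 743 at ZT4, 647 at ZT8, 747 at ZT20, 882 at ZT24, 719 at ZT28, 696 at ZT32, 714 at ZT36, 739.6 at ZT40 and 716 at ZT44. These values lay close together apart from ZT24, the log2 profiles correlated at r = 0.03, and the difference between the slopes was not tested.

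FBX3 (LOC103642218) had signals of 390.0 at ZT0, 299 at ZT4, 277 at ZT8, 389.9 at ZT20, 307 at ZT24, 246 at ZT28, 243 at ZT32, 261 at ZT36, 325 at ZT40 and 326 at ZT44. It was low at ZT4 and ZT8 on the first day and from ZT28 to ZT36 on the second. It was higher at ZT0 and ZT20, and again at ZT40 and ZT44. ZT24, ZT28, ZT32 and ZT44 each lay below the array 24 h earlier, while ZT36 and ZT40 had no such partner. The fitted difference of FBX3 was 0.65 (SE 0.10), with a peak at 18.6 h (SE 0.6), in the subjective night. Its 24-h p ranked 2 among all 12512 probe sets, although it stood outside the rows listed by the rhythm call, and it still missed the threshold after adjustment (limma, adjusted p = 0.223). GRMZM2G009717 had a like timing with a smaller size, at 203 at ZT0, 204 at ZT4, 176 at ZT8, 228 at ZT20, 190.4 at ZT24, 168 at ZT28, 173 at ZT32, 200.01 at ZT36, 211 at ZT40 and 202 at ZT44. Its lowest arrays were ZT8, ZT28 and ZT32, and its fitted peak was at 17.3 h (SE 1.1) with a difference of 0.40 (SE 0.13).

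The remaining F-box genes were GRMZM2G130348 and GRMZM2G481291. GRMZM2G130348 stood at 611 at ZT0, 336 at ZT4, 352 at ZT8, 296 at ZT20, 338 at ZT24, 270.2 at ZT28, 294 at ZT32, 262 at ZT36, 236 at ZT40 and 247 at ZT44, so that the array at the transfer to constant light was far above all later ones. GRMZM2G481291, which in rice matches an F-box protein with leucine-rich repeats, ranged between 448 at ZT28 and 705 at ZT0, with a median of 551.

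The proteasome genes had the lowest median ratio of highest to lowest signal among the role groups, 1.21. Subunit 14 of the 26S particle, the deubiquitinating subunit of its lid, had signals of 1693 at ZT0, 1939.8 at ZT4, 1968 at ZT8, 1771 at ZT20, 1884 at ZT24, 1968 at ZT28, 1954 at ZT32, 1968 at ZT36, 1848 at ZT40 and 1922 at ZT44. PAA2, an α-type subunit of the 20S core, had 2079 at ZT0, 2016 at ZT4, 2093 at ZT8, 2153 at ZT20, 2096 at ZT24, 2524 at ZT28, 2403 at ZT32, 2032 at ZT36, 2272 at ZT40 and 2077 at ZT44. The ratio was 1.16 for subunit 14, whose lowest array was ZT0, and 1.25 for PAA2, whose highest was ZT28. The gene annotated as non-ATPase regulatory subunit 9 of the 26S proteasome did not pass the signal rule, which was applied to signals as deposited. Those ran between 21.7 at ZT0 and 49.0 at ZT32, so that no array reached 50.

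Proteasome genes outside the rule gave similar ranges. These came from a wider list of 23 probe sets of the same pathway in the functional annotation, 21 of them measured. Its 4 proteasome probe sets, for the ubiquitin receptor RPN10 and the lid subunits EMB2107 (2 genes) and ATS9, had ratios of 1.06 to 1.25. COP13 and FUS6, which in Arabidopsis belong to the related COP9 signalosome and carry the proteasome label only through their rice match, had 1.19 and 1.26 and were not counted with them. RPT2a, an ATPase subunit, was not measured. Over these 4 and the 2 measured proteasome members the median ratio was 1.16, while the 2755 probe sets with a mean signal of at least 1000 had a median of 1.40. No test was made of this difference. The EMB2107 gene GRMZM2G014116, with a mean signal of 673, lies below that level.

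**Figure D3:**
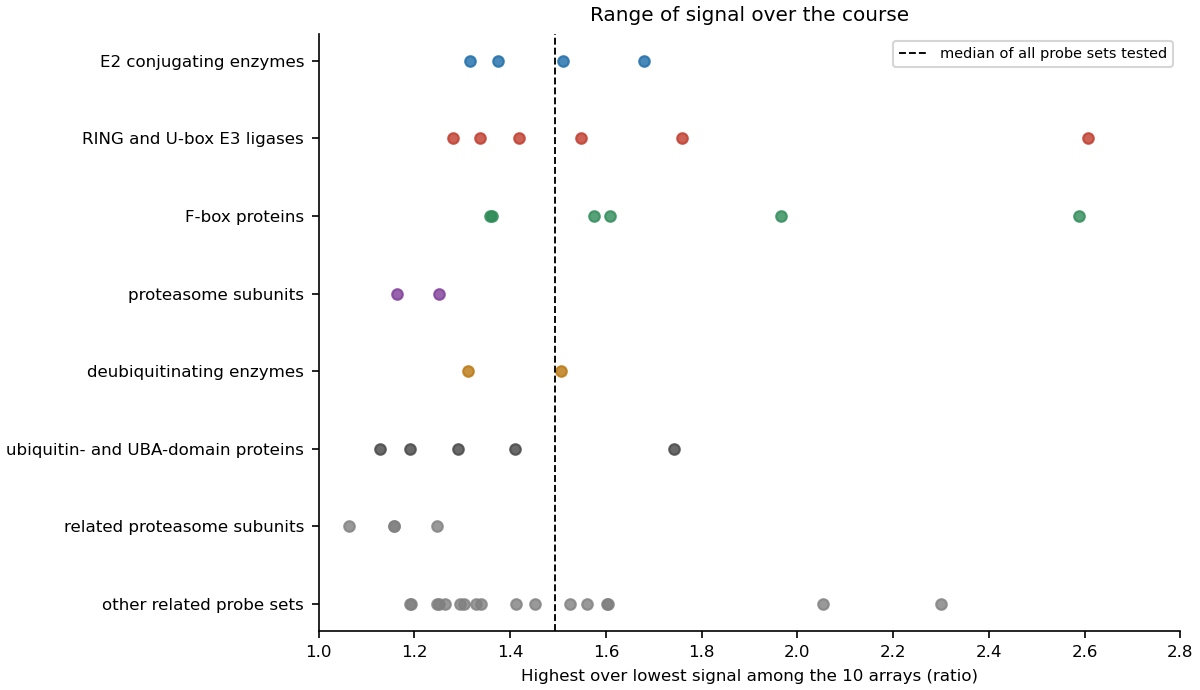
Ratio of the highest to the lowest of the 10 signals (horizontal axis) for each measured probe set, by role, with the related pathway genes in grey and the median of all probe sets, 1.49, as a dashed line. The 6 probe sets counted as proteasome subunits, without COP13 and FUS6, lie between 1.06 and 1.25, and the highest point of the members is the BIG BROTHER match at 2.61.

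The deubiquitinating enzymes are UBP26, which acts on histone H2B in Arabidopsis, and UBP12, which takes part in clock and flowering control there. UBP26 had signals of 375 at ZT0, 389.6 at ZT4, 345 at ZT8, 396 at ZT20, 393 at ZT24, 354 at ZT28, 302 at ZT32, 337 at ZT36, 305 at ZT40 and 365 at ZT44. Its highest arrays were ZT20 and ZT24 and its lowest ZT32 and ZT40, with a fitted peak at 22.9 h (SE 2.0) and a difference of 0.26 (SE 0.11). UBP12 had 966 at ZT0, 843 at ZT4, 899 at ZT8, 911 at ZT20, 707 at ZT24, 990.2 at ZT28, 785 at ZT32, 897 at ZT36, 721 at ZT40 and 1065 at ZT44. From ZT20 on its values alternated between neighbouring arrays, and its fitted difference was 0.10 (SE 0.21), or 0.36 without the ZT24 array.

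The last group holds proteins with a ubiquitin-like or ubiquitin-associated domain, the second of which binds ubiquitin. GRMZM2G055527 had signals of 429 at ZT0, 521 at ZT4, 533 at ZT8, 524 at ZT20, 455 at ZT24, 482 at ZT28, 484 at ZT32, 540.4 at ZT36, 554 at ZT40 and 503 at ZT44, with the lowest arrays at ZT0 and ZT24. GRMZM2G054827 had 306 at ZT0, 327 at ZT4, 329 at ZT8, 315 at ZT20, 285 at ZT24, 343 at ZT28, 403 at ZT32, 373 at ZT36, 299 at ZT40 and 324 at ZT44, and its maximum on the second day had no counterpart of that size on the first. The protein with a ubiquitin-associated domain, GRMZM2G012690, lay between 381 and 454 on all arrays.

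GRMZM2G049839 carries 3 probe sets, which gave different pictures of 1 gene. The first (a) was level, at 895 at ZT0, 857 at ZT4, 967 at ZT8, 895 at ZT20, 878 at ZT24, 962 at ZT28, 876 at ZT32, 952 at ZT36, 859 at ZT40 and 907 at ZT44. The second (b) had 277 at ZT0, 255 at ZT4, 296 at ZT8, 257 at ZT20, 329 at ZT24, 277 at ZT28, 251 at ZT32, 226 at ZT36, 270.5 at ZT40 and 189 at ZT44, and its profile correlated with the first at r = -0.05. The third (c) did not pass the signal rule, with signals of 8.42 to 22.02.

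A 24-h cosine curve was fitted to each probe set together with a linear change over the course, to ask which genes repeat each day in constant light. No member passed the adjusted threshold of 0.05 (0 of 25), and neither did any of the 12512 probe sets (0%), the lowest adjusted p being 0.223 (limma). Before adjustment, 4 of 25 members had a p of 0.05 or less, against 11.1% of all probe sets. These were the UBC9 match AC209755.3, the RGLG2 probe set a, the F-box gene GRMZM2G009717 and FBX3, and the first 3 of them belong to the rows listed by the rhythm call. The median fitted difference was 0.28 over the members, 0.28 over the 18 listed by that call and 0.13 over the 7 from other rows, against 0.23 over all probe sets.

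**Figure D4:**
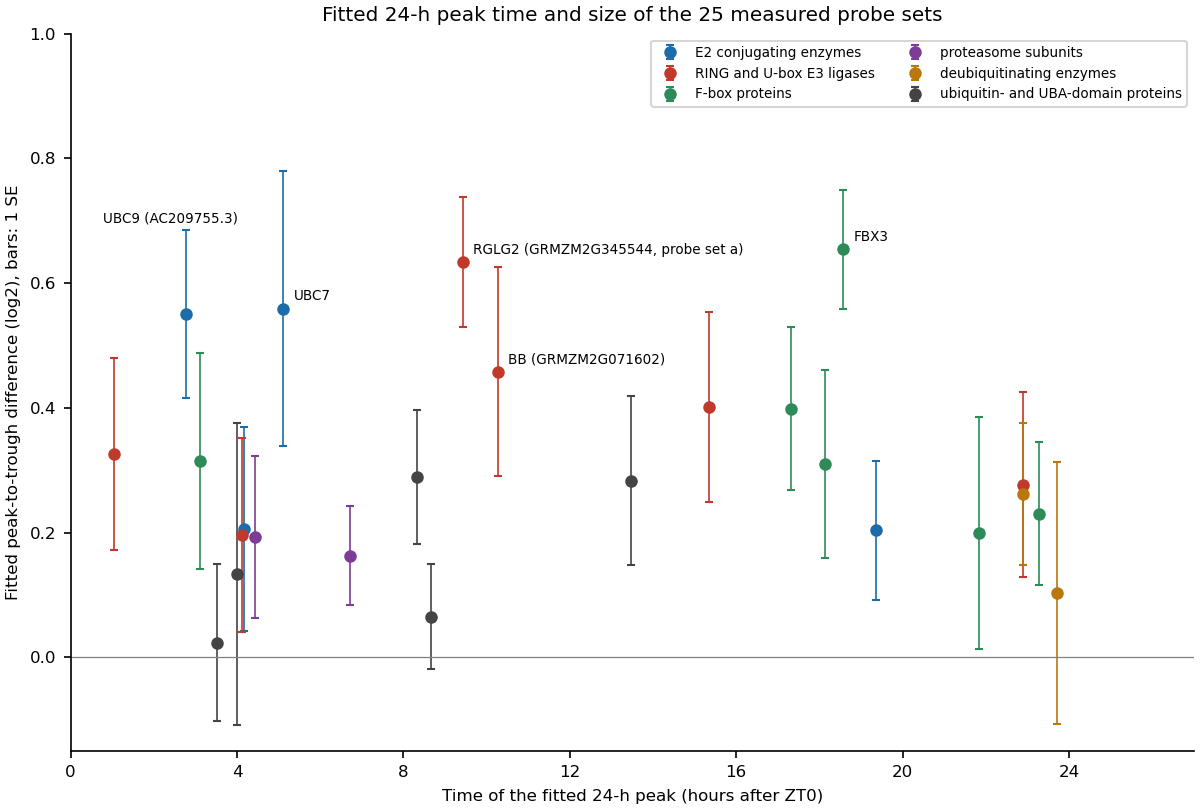
Fitted peak-to-trough difference in log2 (vertical axis, bars 1 SE) against the time of the fitted 24-h peak in hours after ZT0 (horizontal axis) for the 25 measured probe sets, coloured by role. The larger differences are spread over the day, at 2.8 h for the UBC9 match AC209755.3, 9.4 h for the RGLG2 probe set a and 18.6 h for FBX3.

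The linear term of the same fit asks which levels drifted through constant light. 2 of 25 members passed the adjusted threshold, against 6.55% of all probe sets, and both are F-box genes. The kelch F-box gene GRMZM2G041959 rose by 0.58 per 24 h in log2 (SE 0.09, limma adjusted p = 0.0171), and FBX3 fell by 0.27 per 24 h (SE 0.07, limma adjusted p = 0.0386). The rise of GRMZM2G041959 was not steady: it ran from 344 at ZT0 to 674 at ZT28, and later arrays lay between 566 and 676. The BIG BROTHER match GRMZM2G071602 had a slope of 0.43 (SE 0.12, limma adjusted p = 0.0646) and the F-box gene GRMZM2G130348 one of -0.51 (SE 0.14, limma adjusted p = 0.0595), both short of the threshold. Without the ZT0 array these slopes were 0.27 and -0.27. Without the ZT20 array both passed (limma adjusted p = 0.0111 for GRMZM2G071602 and 0.0230 for GRMZM2G130348), as they did with a period of 22 h. With the 3′ to 5′ ratio of the control transcripts as a covariate the slope of GRMZM2G041959 was 0.65 (limma adjusted p = 0.0400) and that of FBX3 was -0.29 (limma adjusted p = 0.0677). The call for GRMZM2G041959 was lost without the ZT0 array (limma adjusted p = 0.0665) or the ZT28 array (limma adjusted p = 0.151). The call for FBX3 was lost in 13 of 19 alternative fits, over which its adjusted p (limma) ran between 0.0277 and 0.206.

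The second day was then set against the first at the times of day measured on both, ZT24, ZT28, ZT32 and ZT44 against ZT0, ZT4, ZT8 and ZT20, so that a 24-h rhythm cancels. No member passed the adjusted threshold, nor did any probe set (0%), with a lowest adjusted p of 0.0652 (limma). Without adjustment, 4 of 25 members reached p of 0.05 or less, against 19.5% of all probe sets. The largest shift was that of GRMZM2G041959, which averaged 624 on the second day and 422 on the first, a log2 difference of 0.56 (SE 0.11, limma adjusted p = 0.113). The BIG BROTHER match GRMZM2G071602 differed by 0.42 (SE 0.14), the F-box gene GRMZM2G130348 by -0.42 (SE 0.12) and FBX3 by -0.27 (SE 0.08). Without the pair ZT24 and ZT0 the first of these came to 0.26 and the second to -0.28, and with the 3′ to 5′ ratio as a covariate to 0.74 and -0.73.

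The size of these shifts was uneven across the pairs. GRMZM2G071602 differed by 0.91 between ZT24 and ZT0 but by 0.01 between ZT44 and ZT20, and GRMZM2G130348 differed by -0.85 between ZT24 and ZT0 and by -0.26 between ZT44 and ZT20. FBX3 was even, at -0.35, -0.28, -0.19 and -0.26 in the pairs starting from ZT24, ZT28, ZT32 and ZT44. All 4 pairs pointed the same way in 6 of 25 members, against 26.4% of all probe sets.

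**Figure D5:**
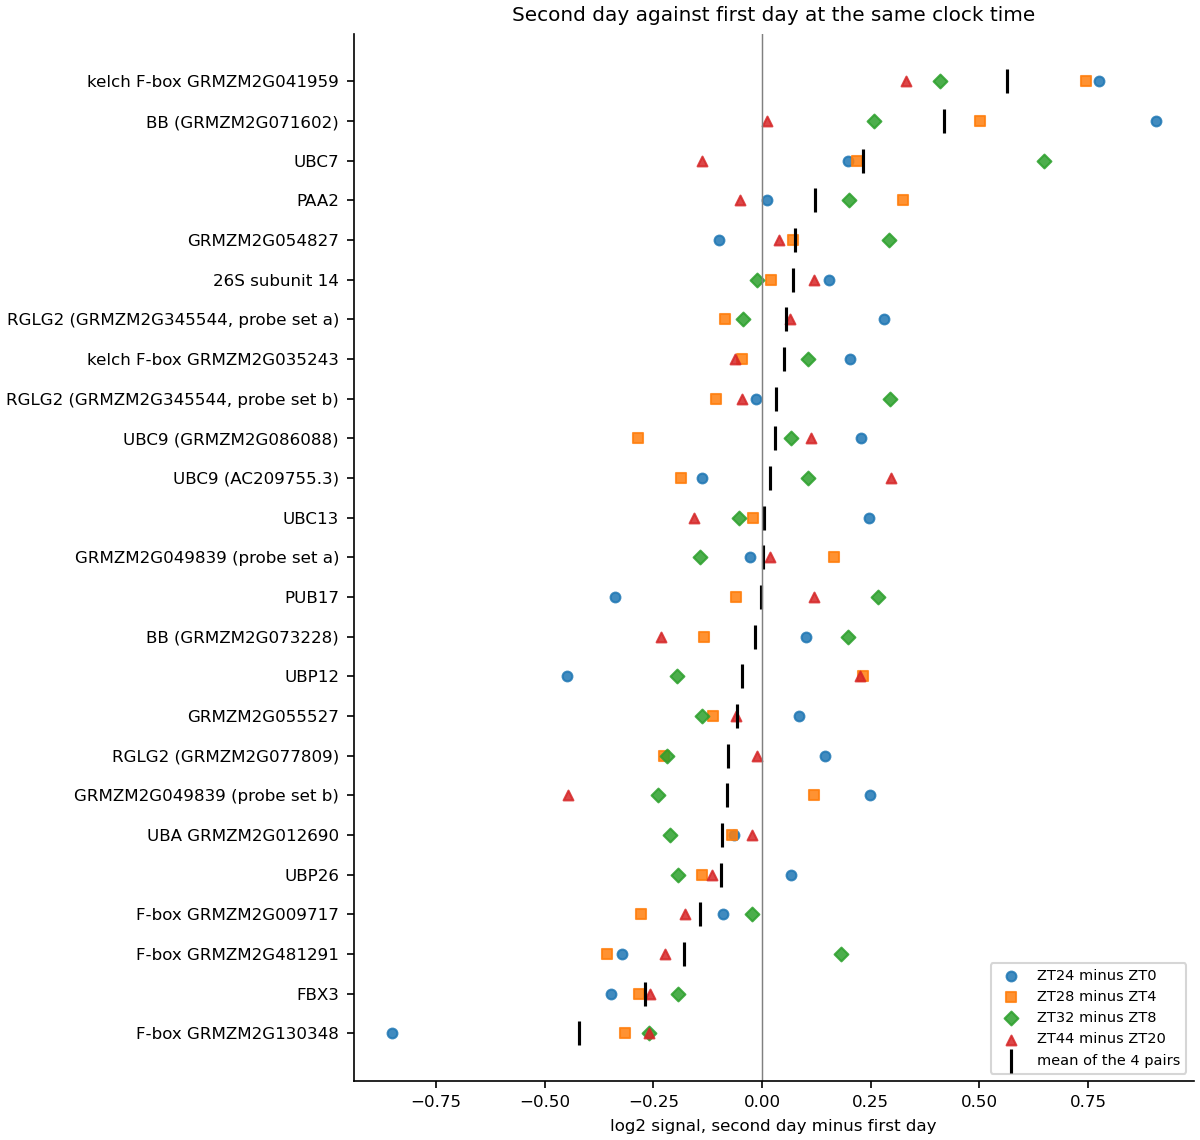
Log2 signal of the second day minus the first at the same clock time (horizontal axis) for the 25 measured probe sets (rows), with 1 marker per pair of arrays and a bar for their mean. The kelch F-box gene GRMZM2G041959 lies to the right of 0 in all 4 pairs with a mean of 0.56, and GRMZM2G130348 lies to the left in all 4 with a mean of -0.42.

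The ZT0 array was harvested at the transfer, directly after a night in photocycles, and its departure from the curve of the later arrays was tested by a term of its own. No member passed the adjusted threshold, against 0.783% of all probe sets. Unadjusted, 3 of 25 members reached 0.05, against 12.2% of all probe sets. The F-box gene GRMZM2G130348 lay 0.74 above its curve in log2 (SE 0.17, limma adjusted p = 0.0937), the BIG BROTHER match GRMZM2G071602 lay at -0.52 (SE 0.19, limma adjusted p = 0.301) and UBC13 at -0.33 (SE 0.13, limma adjusted p = 0.339). For the first 2, the linear change and the day difference given above use the same ZT0 array.

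In the wider pathway list, 1 of 21 measured probe sets had a 24-h p of 0.05 or less before adjustment, against 11.1% of all probe sets. None passed the adjusted threshold of any of the 4 tests, against 6.55% of all probe sets for the linear change, 0.783% for ZT0 and 0% for the others. That probe set belongs to a RING finger gene, GRMZM2G156734, with signals of 429 at ZT0, 548 at ZT4, 986 at ZT8, 556 at ZT20, 599 at ZT24, 621 at ZT28, 732 at ZT32, 842 at ZT36, 734 at ZT40 and 651 at ZT44. Its highest arrays were ZT8 on the first day and ZT36 on the second, with a fitted difference of 0.74 (SE 0.18) and a peak at 11.1 h. The next lowest p belonged to the tubby-like F-box protein TLP10 (523 at ZT0, 640.1 at ZT4, 838 at ZT8, 838 at ZT20, 675 at ZT24, 652 at ZT28, 804 at ZT32, 788 at ZT36, 796 at ZT40 and 708 at ZT44), which was lowest at ZT0. The F-box and lectin protein PP2-B2 followed, with signals of 383 at ZT8 to 584 at ZT0, and then the RING finger gene GRMZM2G141216, with 152 at ZT0 to 244 at ZT36.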

How the data were processed

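Signal intensities of 10 Affymetrix Maize Genome Arrays were used as the authors deposited them, made with MAS5 on a linear scale, the MAS5 version being not given in the sources used here. The authors' own rhythm calls entered no fit and served only to describe which members came from rows listed by that call. Values under 1 were set to 1 (2968 values), 113 control probe sets of 17734 were left out, log2 was taken and arrays were quantile normalised. limma 3.58.1 (R 4.3.3, lmFit and eBayes with trend) was run on probe sets whose signal as deposited reached 50 on 3 or more arrays. The models held a 24-h sinusoid with a linear term (6 residual degrees of freedom), the same with a term for ZT0, and time of day plus day for the 4 matched pairs. P-values were adjusted by Benjamini-Hochberg over all 12512 probe sets, two-sided for single terms, at 0.05. The fits were also run on simulated data with known effects, all larger than those fitted to the members, and no outcome is used here. Summaries and figures used Python 3.11.15, numpy 2.4.6, pandas 2.3.3 and matplotlib 3.10.9.

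Values on every array are given for the 2 members per role with the lowest 24-h p. They are also given for the 3 with the lowest p of the linear change and of the day difference. Members sharing a gene or Arabidopsis match and the extremes of highest over lowest signal are given likewise. Of the related genes, the 2 with the lowest 24-h p are given on every array, and the next 2 by their lowest and highest signal. The members and lists were chosen with earlier results of these data known. Gene names come from the functional annotation and, for 21 members, symbols current in RefSeq (assembly Zm-B73-REFERENCE-NAM-5.0). No sequences or coordinates were used. Alternatives varied the scaling, filter, pseudocount, variance, period and arrays; the 3′ to 5′ ratio as a covariate was added after seeing the data.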

Additional observations from a re-analysis of the deposited data

How the results depend on the processing

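No paired analysis was possible because the labels give every array the same replicate number and each time point has 1 array, so replicate numbers pair nothing; the day comparison pairs arrays by clock time only. Leaving out 1 array or pair at a time, the linear change calls ran between 2 (without ZT28) and 2331 (without ZT20) over all probe sets, against 820, and between 0 (without ZT0 or ZT28) and 4 (without ZT20) among members, against 2. The day difference gave 0 to 343 calls (343 without the pair ZT44 and ZT20) and the ZT0 term 43 to 213, against 0 and 98, with 0 among members throughout. The 24-h calls stayed at 0.

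With the 3′ to 5′ ratio as a covariate, chosen after seeing the data, there were 84 linear calls (1 among members), 2 day calls and 52 ZT0 calls. The linear calls among members also came to 1 on deposited values and to 1 without the filter, and to 3 with a 22 h period. Over all probe sets there were 1178 with that period and 1079 with a 26 h period. The day calls were 11 on deposited values, 1 with median centring and 12 with robust variances. ZT0 calls were 40 with a 22 h period and 174 with a 26 h period. Fitting ZT24 to ZT44 alone, without the linear change, gave 42 24-h calls and 0 among members. No named linear, day or ZT0 value changed sign. The number of arrays limits the precision, and UBC7, at 67.5 to 113, lies close to the signal rule.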

Other observations

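The array carries control probe sets for a maize ubiquitin transcript, which are no members and enter the fits above only as 1 of the 5 ratios averaged into the 3′ to 5′ covariate. As deposited, the 3′ version had signals of 5455.5 at ZT28, its lowest array, to 7083 at ZT24, its highest. The middle version ran between 5424 at ZT36 and 6802 at ZT24, and the 5′ version between 2494 at ZT20 and 3518 at ZT32. The 3′ to 5′ ratio of this transcript was 1.74 at ZT28 and 2.60 at ZT36.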
